A study of Homo sapiens with 12 samples.

Results

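Heme breakdown and iron handling were followed through 10 genes, chosen by name: the heme oxygenases HMOX1 and HMOX2, the biliverdin reductases BLVRA and BLVRB, the ferritin chains FTL and FTH1, the transferrin receptor TFRC, the iron exporter SLC40A1, and the heme synthesis enzymes FECH and ALAS1. Of these 10 genes, 9 were measured, among 10623 genes in all. No probe set was paired with FTH1 in the gene table used here, and it is not analysed here. The cells were HK-2, human proximal tubule epithelium of the kidney made into a lasting line, grown in a defined medium with added transferrin, selenite, insulin, hydrocortisone and EGF. They received a compound labelled Di for 12 h or 48 h, in a study of kidney-toxic compounds, and each time had its own control cells, which received vehicle. Each of the 4 groups (control and Di cells, each collected at either time) had 3 arrays from biological replicates of this 1 line, so n = 3 for every group value given. The identity and the dose of Di are not given in the sources used here.

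Heme oxygenase opens the heme ring and releases iron, carbon monoxide and biliverdin, and biliverdin reductase turns biliverdin into bilirubin. HMOX1 is the inducible form, held down by the repressor BACH1 and switched on by NRF2 (gene NFE2L2) with small MAF partners, while HMOX2 is the constitutive form. Freed iron is stored in ferritin or exported by ferroportin (SLC40A1), and transferrin-bound iron enters through TFRC. Ferritin and transferrin receptor are also controlled through iron-responsive elements (IREs) of their mRNAs, RNA hairpins bound by iron regulatory proteins, and this control acts on translation or on mRNA stability. Only mRNA was measured here.

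2 short sequences match letter patterns of control elements known for this pathway, and whether they act in these cells was not tested. They were read from RefSeq windows of 250 bases before to 50 bases after each gene's start (GRCh38.p14, 9 windows for 8 of the 10 genes). The first is the IRE hairpin in the transcribed start of FTL, at chr19:48965341-48965358 on the plus strand, with the 6 loop bases in capitals, and the second lies just upstream of FECH, at chr18:57586707-57586780 on the minus strand, with a match to the antioxidant response element (ARE) core in capitals.
FTL: cttcaaCAGTGTttggac
FECH: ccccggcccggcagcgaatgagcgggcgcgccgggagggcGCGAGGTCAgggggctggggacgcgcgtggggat
In the FTL hairpin the 5 bases before the loop pair with the 5 bases after it at all 5 positions, allowing G with U. The search took a C, any 5 bases and CAGTGN on the transcribed strand, within the first 50 transcribed bases. It matched FTL alone among the 8 genes, and 1.67% of all 35116 windows. The rest of each mRNA was not searched, so this says nothing of IREs elsewhere in the other genes' mRNAs. The ARE core was searched as TGACNNNGC on both strands of the whole window, and these letters do not overlap those of the first search. In FECH the match lies on the opposite strand, 38 to 30 bases before the start, and 13.3% of all windows hold one. Among the 8 genes only FECH held it, a share near that of all windows, and this says nothing of enhancers outside the windows. HMOX1 and FTH1 had no window, so neither was searched for either element.

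Across the 12 arrays the medians lay between 2.97 and 3.06 (log2), and arrays of 1 group correlated at 0.995 to 0.998 across all 54675 probe sets, with no filter on level. For actin the 3' probe set exceeded the 5' one, a sign of RNA integrity, by 1.22 ± 0.239 (SD, n = 3) in Di and 1.71 ± 0.178 in control at 12 h. This difference has an exact two-sided permutation p of 0.1, the smallest that 3 against 3 arrays allow. At 48 h these excesses were 1.41 ± 0.0776 and 1.33 ± 0.128 (exact permutation p = 0.5, n = 3). For GAPDH the 3' minus 5' value at 12 h was 0.0518 ± 0.0994 in Di and 0.126 ± 0.0841 in control (exact permutation p = 0.3). At 48 h the GAPDH values were -0.0340 ± 0.0396 in Di and 0.000125 ± 0.0206 in control (exact permutation p = 0.2). None of 10 proximal tubule markers, LRP2, CUBN and AQP1 among them, exceeded a log2 value of 4 in 3 arrays, while all 6 epithelial markers did. The summed level of those 6 was 14.17 to 14.36 on the log2 scale in Di at 12 h, 14.27 to 14.34 in control at 12 h, 14.16 to 14.35 in control at 48 h and 13.69 to 13.83 in Di at 48 h. The 6 did not move together: Di minus control at 48 h was 0.20 for KRT18 and 0.13 for KRT8 (log2). EPCAM, KRT19, CDH1 and CDH6 gave -0.65, -1.19, -1.33 and -3.49. For fibroblast markers 3 of 6 were measured (COL1A1, LUM, DCN), and PDGFRA, PDGFRB and COL1A2 lay under the filter. Their sum was 11.45 to 11.68 in control and 11.34 to 11.59 in Di at 12 h, and 10.39 to 10.49 in control and 9.37 to 9.73 in Di at 48 h. No leukocyte, endothelial or erythroid marker of 8 with a named probe set passed the filter, HBB and ALAS2 included. The part of the marker sums and of the actin and GAPDH values in the results was not tested. In bulk RNA fewer cells of a type and less RNA per cell cannot be told apart.

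At 48 h of Di, 7 of the 9 measured genes rose and none fell, led by HMOX1, which was 44.0-fold higher than in control cells. At 12 h HMOX1 and TFRC rose, by 1.55-fold and 1.44-fold, and none fell. At an unadjusted limma p under 0.05, FECH alone was lower at 12 h and none was lower at 48 h. HMOX2 and SLC40A1 passed the test at neither time. A gene is said to rise or fall where limma's moderated test gave a Benjamini-Hochberg adjusted p under 0.05 over the 10623 genes. At 12 h the 2 risen genes of 9 stand beside a background of 13.7% of all genes called, 3.9% higher and 9.8% lower. At 48 h the 7 risen genes stand beside 50.9% called, 22.9% higher and 28% lower. The 3 Di arrays all lay above the 3 control arrays for 7 of the 9 genes at 12 h and for 7 at 48 h, where 34.8% and 61.6% of all genes had arrays that did not overlap in either direction. The median log2 change of the 9 genes was 0.27 at 12 h and 0.43 at 48 h, against -0.06 and -0.02 over all genes tested.

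**Figure D1:**
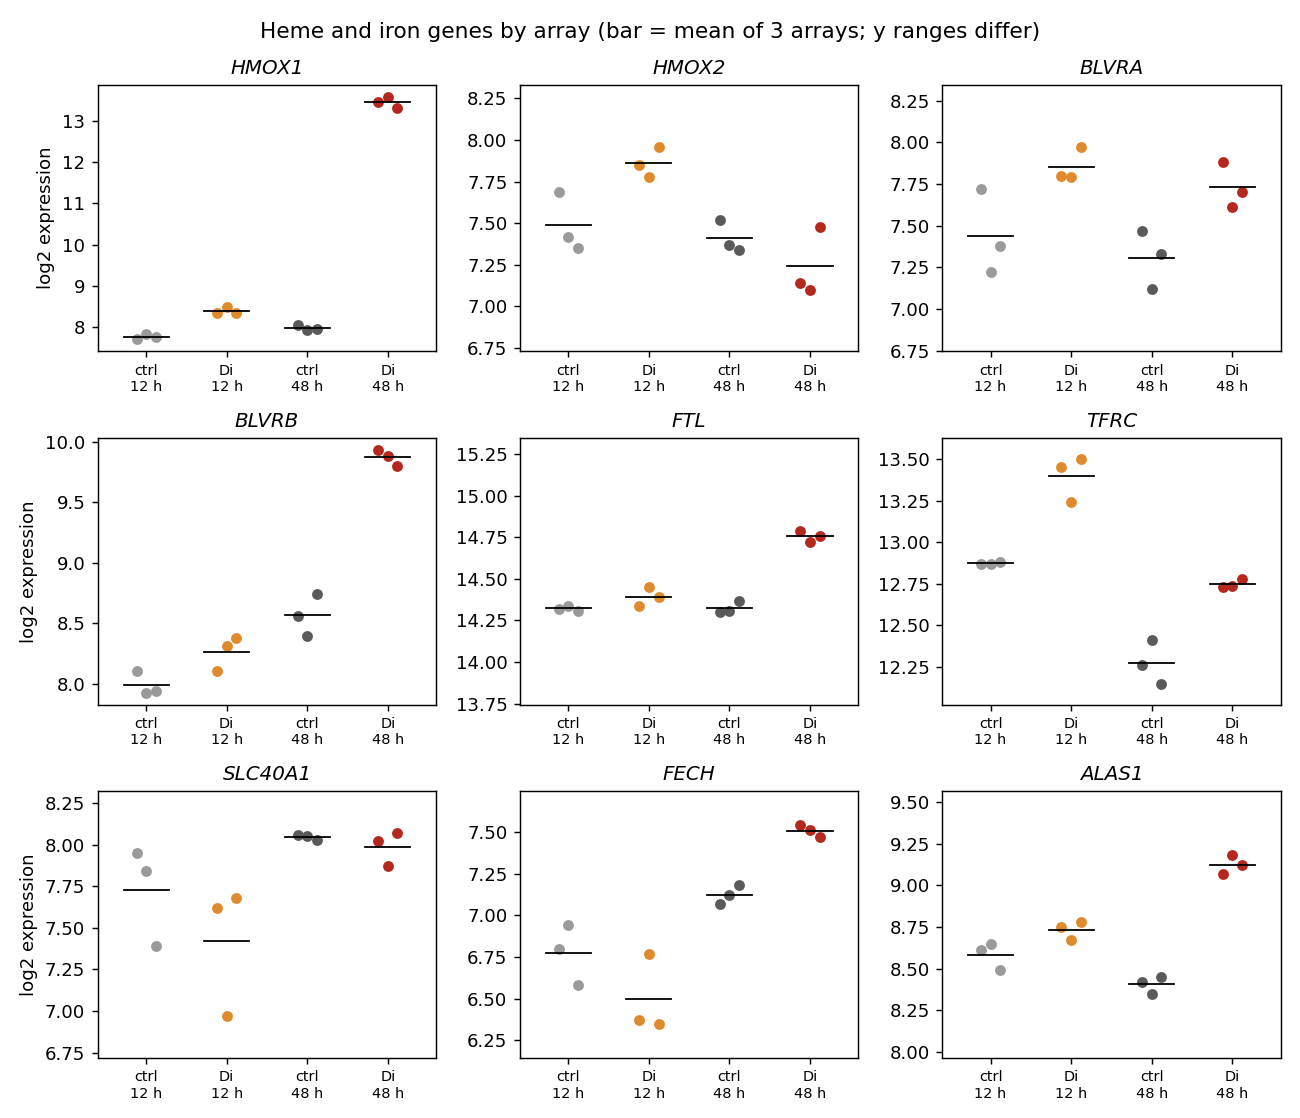
Log2 expression of the 9 measured genes in each of the 12 arrays, 1 panel per gene with its own y range, points for arrays in replicate order and a bar for the mean of 3. HMOX1 in Di at 48 h, at 13.31 to 13.57, stands far above every other group, while the SLC40A1 groups overlap at each time.

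HMOX1 makes the enzyme that opens the heme ring, and it gave the largest fitted increase of all 10623 genes at 48 h. Its log2 values were 7.71, 7.83 and 7.76 in control at 12 h and 8.35, 8.49 and 8.35 in Di at 12 h. They were 8.05, 7.93 and 7.97 in control at 48 h and 13.45, 13.57 and 13.31 in Di at 48 h. No group overlapped another: the order was 12 h control, 48 h control, 12 h Di and, far above, 48 h Di. The log2 change was 0.63 ± 0.0807 (SE) at 12 h, 1.55-fold higher (limma adjusted p = 0.00137). At 48 h it was 5.46 ± 0.0807, 44.0-fold higher (adjusted p = 5.05e-12). The change at 48 h exceeded that at 12 h by 4.83 ± 0.114 (adjusted p = 7.28e-10). Under each of 21 alternatives the Di change remained a called increase, of 0.58 to 0.72 at 12 h and, 48 h into treatment, of 5.39 to 5.53. In control cells HMOX1 was 0.22 ± 0.0807 higher at 48 h than at 12 h (adjusted p = 0.0407), a call that ended in 9 of the 21 alternatives.

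HMOX2, the constitutive heme oxygenase, passed the test at neither time. In the 12 h arrays HMOX2 read 7.69, 7.42 and 7.35 in control and 7.85, 7.78 and 7.96 in Di. The 48 h arrays gave 7.52, 7.37 and 7.34 in control and 7.14, 7.10 and 7.48 in Di. The 12 h arrays did not overlap, with Di higher, and at 48 h the highest Di array lay within the control range. The difference was 0.38 ± 0.118 at 12 h (adjusted p = 0.0583) and -0.17 ± 0.118 at 48 h (adjusted p = 0.263, 95% interval -0.43 to 0.09), neither of which passed the test. The change at 48 h was below that at 12 h by a called difference of -0.54 ± 0.167 (adjusted p = 0.0241). Both results sit near the threshold. The 12 h increase was called in 6 of 21 alternatives, among them without control 12 h replicate 1 (adjusted p = 0.0308) and without Di 48 h replicate 3 (0.0345). A floor of 6 (0.0457), the mean of both probe sets (0.0324) and quantile normalization (0.0255) also gave that call. The called difference between the times was lost when any of control 12 h replicates 2 or 3, control 48 h replicate 1, Di 12 h replicate 3, or Di 48 h replicates 1 or 2 was left out (adjusted p = 0.0536 to 0.0601). A dimmer second probe set gave differences of 0.41 at 12 h and 0.04 at 48 h, with overlapping arrays at both times.

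BLVRB, which reduces biliverdin and flavins, rose 2.47-fold at 48 h. Its log2 values were 8.11, 7.93 and 7.94 in control and 8.11, 8.31 and 8.38 in Di at 12 h. At 48 h they were 8.56, 8.40 and 8.74 in control and 9.93, 9.88 and 9.80 in Di. The Di arrays at 48 h stood more than a full log2 unit above every control array, whereas at 12 h the lowest Di array nearly touched the highest control array. The log2 change was 0.27 ± 0.1 at 12 h (adjusted p = 0.0936) and 1.30 ± 0.1 at 48 h (adjusted p = 9.81e-07). The difference between the times was 1.03 ± 0.141 (adjusted p = 0.0002). Control cells also gained BLVRB between 12 h and 48 h, by 0.57 ± 0.1 (adjusted p = 0.000578).

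BLVRA, the reductase that makes bilirubin in adult tissue, rose 1.34-fold at 48 h, a call that 2 arrays decide. For BLVRA the 12 h arrays gave 7.72, 7.22 and 7.38 in control and 7.80, 7.79 and 7.97 in Di. Those at 48 h gave 7.47, 7.12 and 7.33 in control and 7.88, 7.61 and 7.70 in Di. At both times Di lay above control without overlap, and the control arrays were the more spread. Di minus control gave 0.42 ± 0.134 at 12 h (adjusted p = 0.0639) and 0.42 ± 0.134 at 48 h, 1.34-fold higher (adjusted p = 0.0212). The difference between the times was 0.0066, with a 95% interval of -0.41 to 0.42. The 48 h call was lost without control 48 h replicate 2 (adjusted p = 0.0878) or Di 48 h replicate 1 (0.0791), and the 12 h change was called without control 12 h replicate 1 (0.0217). 2 brighter probe sets marked for possible cross-hybridisation gave 0.26 and 0.32 at 48 h without overlap, and 0.19 and 0.10 at 12 h with overlap.

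FTL, the light chain of the ferritin shell, rose 1.35-fold at 48 h. In the 12 h arrays FTL read 14.32, 14.34 and 14.31 in control and 14.34, 14.45 and 14.39 in Di. The 48 h arrays gave 14.30, 14.31 and 14.37 in control and 14.79, 14.72 and 14.76 in Di. Only Di at 48 h stood clear of the rest, by a gap larger than the range within any group. The log2 change was 0.07 ± 0.058 at 12 h (adjusted p = 0.437) and 0.43 ± 0.058 at 48 h (adjusted p = 8.47e-05). The difference between the times was 0.36 ± 0.0821 (adjusted p = 0.00539). FTL was read here only through probe sets marked for possible cross-hybridisation. Its second one gave 0.22 at 12 h and 0.62 at 48 h, without overlap at either time. The FTL values lie close to the highest value of each array, 15.67 to 15.85, and whether the scale is compressed there was not tested. The hairpin printed above bears on translation of this mRNA, which these arrays do not show.

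For the ferritin heavy chain the nearest reading is a probe set named for FTH1P5, a processed pseudogene whose sequence is close to that of FTH1. It was chosen after its values were seen, and what share of its signal comes from FTH1 cannot be told apart. Its mean was 13.85 ± 0.0329 (SD, n = 3) in control and 13.78 ± 0.00872 in Di at 12 h, and 13.89 ± 0.00838 in control and 14.22 ± 0.0439 in Di at 48 h. The log2 change was -0.07 ± 0.0555 at 12 h (adjusted p = 0.435) and 0.33 ± 0.0555 at 48 h (adjusted p = 0.000447).

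TFRC, the receptor that brings in transferrin-bound iron, rose at both times. For TFRC the 12 h arrays gave 12.87, 12.87 and 12.88 in control and 13.45, 13.24 and 13.50 in Di. Those at 48 h gave 12.26, 12.41 and 12.15 in control and 12.73, 12.74 and 12.78 in Di. No group overlapped another, and the order from low to high was control then Di at 48 h, followed by control then Di at 12 h. Di minus control gave 0.52 ± 0.085 at 12 h, 1.44-fold (adjusted p = 0.00419), and 0.48 ± 0.085 at 48 h, 1.39-fold (adjusted p = 0.000684). The difference between the times was -0.05 ± 0.12, with a 95% interval of -0.31 to 0.22. In control cells TFRC fell by 0.60 ± 0.085 from 12 h to 48 h (adjusted p = 0.000133), so Di at 48 h still lay below control at 12 h. The other kept TFRC probe sets also lay higher in Di without overlap: 1 gave 0.74 at 12 h and 0.73 at 48 h, and the dimmest gave 2.38 and 1.00. With the mean of the 3 probe sets in place of the brightest, the difference between the times became -0.48 (adjusted p = 0.0233), from 1.22 at 12 h to 0.74 at 48 h, and the fall in control cells -0.14 (adjusted p = 0.272). The dimmest probe set carries this shift: its control arrays read 7.13, 5.82 and 6.17 at 12 h and 7.28, 7.61 and 7.41 at 48 h.

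SLC40A1, or ferroportin, the iron exporter of the cell membrane, showed no called change. Its log2 values were 7.95, 7.84 and 7.39 in control and 7.62, 6.97 and 7.68 in Di at 12 h. At 48 h they were 8.06, 8.05 and 8.03 in control and 8.02, 7.87 and 8.07 in Di. The groups overlapped at both times, and the 12 h arrays were the more spread. The difference was -0.30 ± 0.184 at 12 h (adjusted p = 0.293, 95% interval -0.71 to 0.10) and -0.06 ± 0.184 at 48 h (adjusted p = 0.813, 95% interval -0.46 to 0.34). Di 12 h replicate 2 is the low array, and without it the 12 h difference was -0.08.

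**Figure D2:**
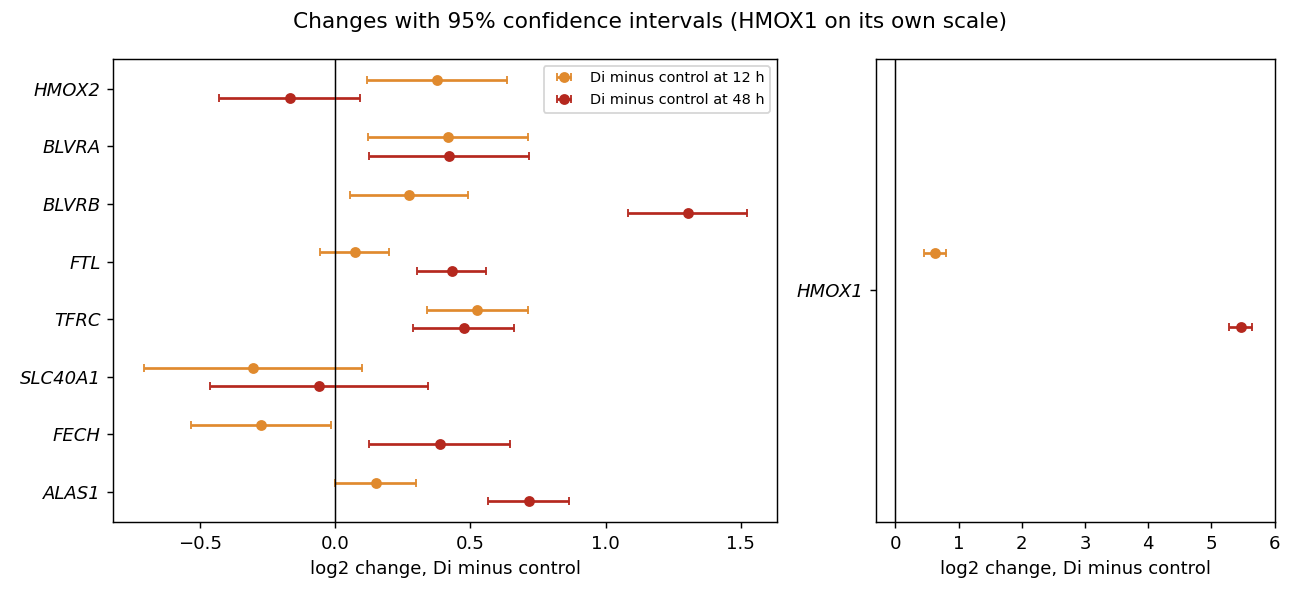
Log2 change from control to Di at 12 h (orange) and 48 h (red), as points with 95% confidence intervals from the limma fit, with HMOX1 on an axis of its own. BLVRB and ALAS1 separate clearly by time, at 0.27 against 1.30 and 0.15 against 0.72, while the intervals of BLVRA and of TFRC overlap between the times.

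ALAS1, the first and rate-limiting enzyme of heme synthesis, which heme itself is known to repress, rose 1.64-fold at 48 h. In the 12 h arrays ALAS1 read 8.61, 8.65 and 8.49 in control and 8.75, 8.67 and 8.78 in Di. The 48 h arrays gave 8.42, 8.35 and 8.45 in control and 9.07, 9.18 and 9.12 in Di. Di lay above control without overlap at both times, by a narrow margin at 12 h. Changes on the log2 scale were 0.15 ± 0.068 at 12 h (adjusted p = 0.165) and 0.72 ± 0.068 at 48 h (adjusted p = 5.5e-06). The difference between the times was 0.57 ± 0.0962 (adjusted p = 0.00085).

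FECH, which inserts iron into protoporphyrin as the last step of heme synthesis, rose 1.31-fold at 48 h. Its log2 values were 6.80, 6.94 and 6.58 in control and 6.37, 6.77 and 6.35 in Di at 12 h. At 48 h they were 7.07, 7.12 and 7.18 in control and 7.54, 7.51 and 7.47 in Di. The groups overlapped at 12 h through the second Di array and were clear of each other at 48 h. The log2 change was -0.28 ± 0.118 at 12 h (adjusted p = 0.142) and 0.39 ± 0.118 at 48 h (adjusted p = 0.0176). The difference between the times was 0.66 ± 0.167 (adjusted p = 0.00916). Without Di 12 h replicate 2 the 12 h change was -0.41 and called (adjusted p = 0.022), and without control 48 h replicate 1 the 48 h call was lost (0.0577). A second probe set gave -0.21 at 12 h and 0.23 at 48 h, without overlap, but 1 array carries each value: it was -0.10 without Di 12 h replicate 2 and 0.05 without Di 48 h replicate 3. The promoter stretch printed above holds the ARE core match of FECH; binding there was not measured.

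**Figure D3:**
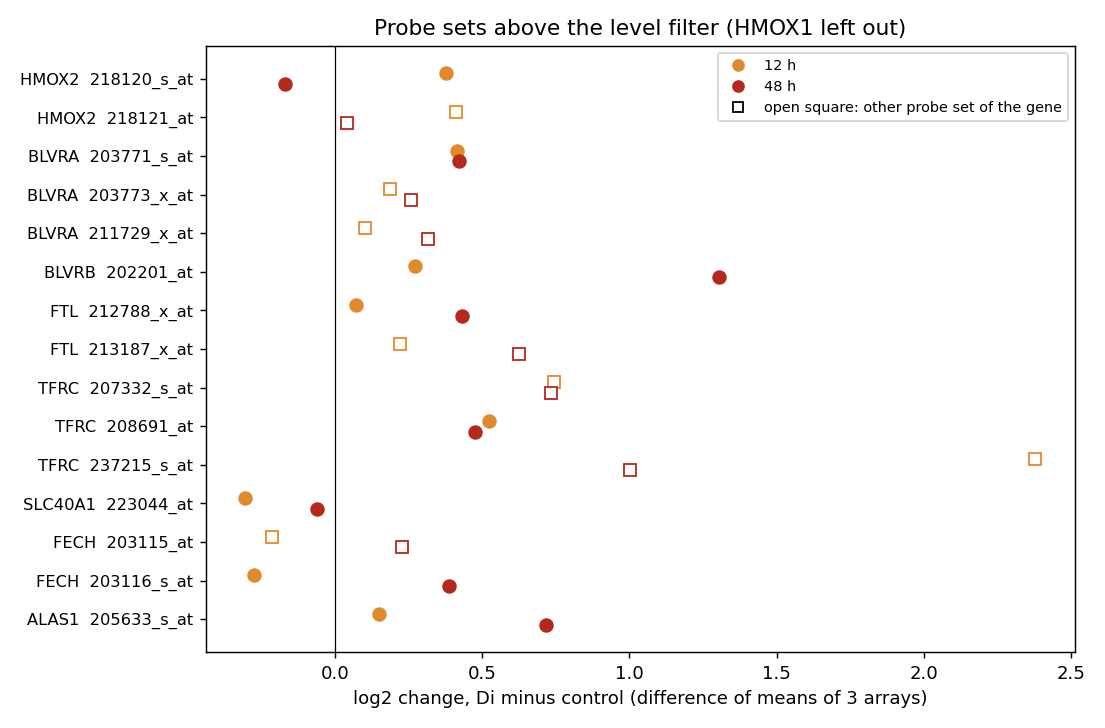
Log2 change from control to Di at 12 h (orange) and 48 h (red) for every probe set above the level filter of the measured genes other than HMOX1, as differences of means of 3 arrays. Filled circles are the probe sets used for the genes and open squares their other probe sets. All 3 TFRC probe sets lie above 0 at both times, and both FECH probe sets lie below 0 at 12 h and above 0 at 48 h.

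Between the times, the Di change differed for 6 of the 9 genes: it was higher at 48 h for HMOX1, BLVRB, FECH, ALAS1 and FTL and lower for HMOX2. The background for this comparison was 38.3% of all genes called, 19.7% higher and 18.5% lower. In control cells from 12 h to 48 h, HMOX1, BLVRB and FECH rose and TFRC fell, against a background of 52.9% called, 21.9% higher and 31% lower. ALAS1 differed by -0.17 (adjusted p = 0.0505), which was called in 6 of 21 alternatives, among them without control 12 h replicate 3 (0.0294) or Di 12 h replicate 2 (0.0378). The FECH rise of 0.35 (adjusted p = 0.0282) was lost without control 12 h replicate 1 or 3 or control 48 h replicate 2 or 3 (adjusted p = 0.0549 to 0.113). It was also lost with no filter on level (0.057) and with the mean of both FECH probe sets, which gave 0.17 (0.0905). The HMOX1 rise of 0.22 was lost without control 12 h replicate 1 or 3, any control 48 h replicate, Di 12 h replicate 1 or 3, or Di 48 h replicate 1 (adjusted p = 0.0502 to 0.13). SLC40A1 differed by 0.32 (adjusted p = 0.168), and was called without Di 12 h replicate 2 (0.0499). HMOX2, BLVRA and FTL differed by -0.08, -0.13 and 0.0046.

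Other genes of heme and iron metabolism were taken from a list of 59, of which 43 were measured, 9 lay under the filter and 7 are not analysed here. At 12 h 2 of the 43 were higher and 2 lower, where 3.9% of all genes were higher and 9.8% lower. At 48 h 12 were higher, 18 were lower and 13 did not pass the test, beside 22.9% higher and 28% lower over all genes. The median log2 change of the 43 at 48 h was -0.09, against -0.02 over all genes. These shares of all genes are also the background of the list counts at 48 h that follow. At 12 h MAFF (0.37, adjusted p = 0.0187) and CISD1 (0.29, 0.0265) were higher, and PPOX (-0.86, 0.0184) and ISCU (-0.24, 0.0463) were lower. All 4 of these 12 h calls were lost without control 12 h replicate 2 or 3. They were also lost without Di 12 h replicate 1 (MAFF, ISCU), replicate 2 (ISCU) or replicate 3 (MAFF, CISD1, ISCU), without control 12 h replicate 1 (CISD1, ISCU), and for ISCU without control 48 h replicate 2 or any Di 48 h replicate. The ISCU call also ended under each of the 3 other scalings of the arrays (adjusted p = 0.0676 to 0.244). A fit of the 12 h arrays alone ended all 4 calls (adjusted p = 0.0564 to 0.0792).

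Along the heme synthesis pathway at 48 h, ALAS1 and FECH at its ends rose while the 5 measured enzymes between them fell. ALAD, which joins the ALAS product into a pyrrole, read 7.59, 7.94 and 7.50 in control and 5.71, 6.27 and 6.03 in Di. Every Di array of ALAD lay more than a log2 unit below every control array, a change of -1.67 ± 0.159 (3.19-fold lower, adjusted p = 5.43e-06). UROD, which decarboxylates uroporphyrinogen, read 10.58, 10.44 and 10.66 in control and 9.53, 9.60 and 9.59 in Di. It fell by 0.98 ± 0.0743 (adjusted p = 8.78e-07), again with clear groups. PPOX, the enzyme before FECH, had a Di mean of 3.10, under the log2 floor of 4, and was at least 2.11-fold lower (adjusted p = 9.58e-06). UROS fell by 0.65 (adjusted p = 6.21e-05). CPOX fell by 0.37 (adjusted p = 0.0362), a call lost without control 48 h replicate 1 or 2 or Di 48 h replicate 1 or 2 (adjusted p = 0.0518 to 0.136) or with no filter on level (0.0774). CLPX, the protease subunit that acts on ALAS, rose by 0.24 (adjusted p = 0.0163), a call lost without control 48 h replicate 2 or Di 48 h replicate 1 or 3 (0.05 to 0.0574). With the mean of each gene's kept probe sets, the CLPX change was 0.11 (adjusted p = 0.289) and that of UROS -0.39 (0.0703).

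**Figure D4:**
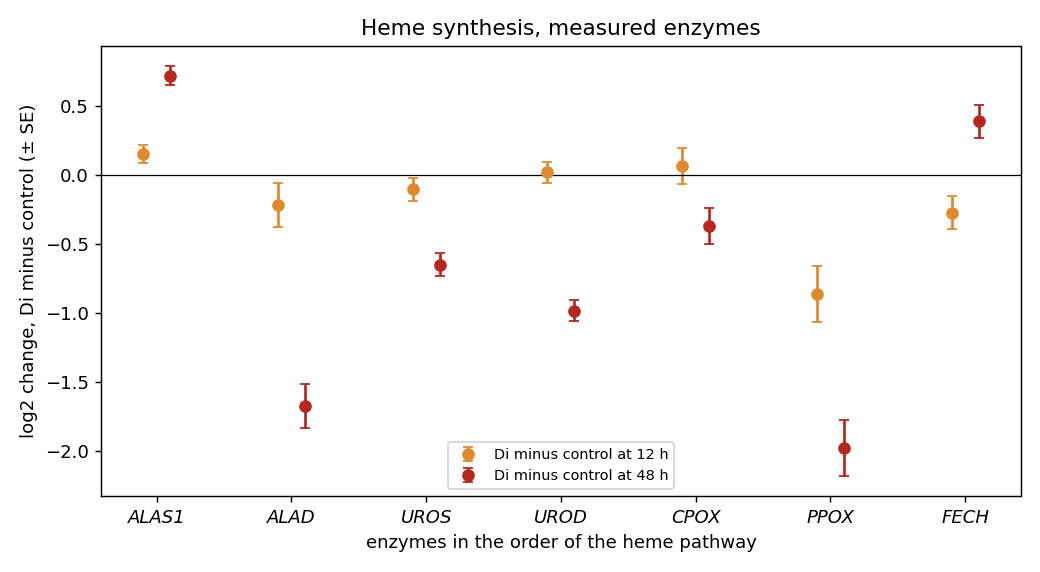
Log2 change from control to Di at 12 h (orange) and 48 h (red) for the measured enzymes of heme synthesis in pathway order, with SE from the limma fit. At 48 h ALAS1 (0.72) and FECH (0.39) lie above 0 and the 5 enzymes between them, from -0.37 for CPOX to -1.98 for PPOX, lie below; for PPOX the fitted change runs under the floor.

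Of the regulators that act on HMOX1, 4 of 5 measured were higher at 48 h, against 22.9% of all genes. MAFF, a small MAF partner, read 10.20, 10.16 and 10.32 in control and 12.28, 12.29 and 12.16 in Di, 4.04-fold higher (adjusted p = 1.05e-08). MAFG read 5.99, 5.79 and 5.98 in control and 7.76, 7.74 and 7.58 in Di, 3.43-fold higher (adjusted p = 4.89e-07). For both, Di and control were far apart. KEAP1, which targets NRF2 for breakdown, was 1.99-fold higher (adjusted p = 1.62e-06). BACH1, the heme-sensing repressor of HMOX1, was 1.65-fold higher (change 0.73 ± 0.105, adjusted p = 0.000141), with a difference of -0.13 at 12 h (adjusted p = 0.455). NFE2L2 differed by -0.08 at 12 h (adjusted p = 0.72) and 0.04 at 48 h (adjusted p = 0.795), with overlapping arrays at 48 h. Of the iron regulatory proteins, ACO1 differed by -0.22 at 12 h (adjusted p = 0.124) and 0.12 at 48 h (0.292), and IREB2 is not analysed here.

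In heme transport 2 of 7 measured genes were higher and 1 lower at 48 h, beside 22.9% and 28% of all genes. The porphyrin transporter ABCB6 rose 2.13-fold (adjusted p = 0.000526), the heme importer SLC48A1 rose by 0.65 (0.00019), and ABCB10 fell by 0.73 (0.00321). Of 9 measured iron uptake genes 3 were higher and 4 lower, 7 in all, beside 50.9% of all genes called. LCN2, a siderophore-binding protein and kidney injury marker, read 5.20, 4.93 and 5.01 in control and 6.69, 6.86 and 6.99 in Di, 3.49-fold higher (adjusted p = 2.99e-08). SLC39A14 and STEAP3 rose by 0.80 and 0.39. HFE, a partner of the transferrin receptors, was at least 3.09-fold lower on the probe set used (adjusted p = 3e-05), where its Di mean lay under the floor. That bound does not hold for the gene as a whole: with the mean of its 11 kept probe sets the HFE change was -0.75, still called. The metal importer SLC39A8 fell by 1.07 (2.10-fold lower, adjusted p = 2.41e-06), and CYBRD1 and TFR2 fell by 0.69 and 0.54. In storage and ferritinophagy 3 of 4 were lower, among them NCOA4, the receptor that delivers ferritin to lysosomes, which fell by 0.44 (adjusted p = 0.000331) while FTL rose. FBXL5, the iron-sensing subunit that marks an iron regulatory protein for breakdown, fell by 1.00 (adjusted p = 1.72e-06). Of 10 mitochondrial iron and iron-sulfur genes 2 were higher and 4 lower, a share near the 50.9% of all genes called, with changes within 0.41 of 0.

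**Figure D5:**
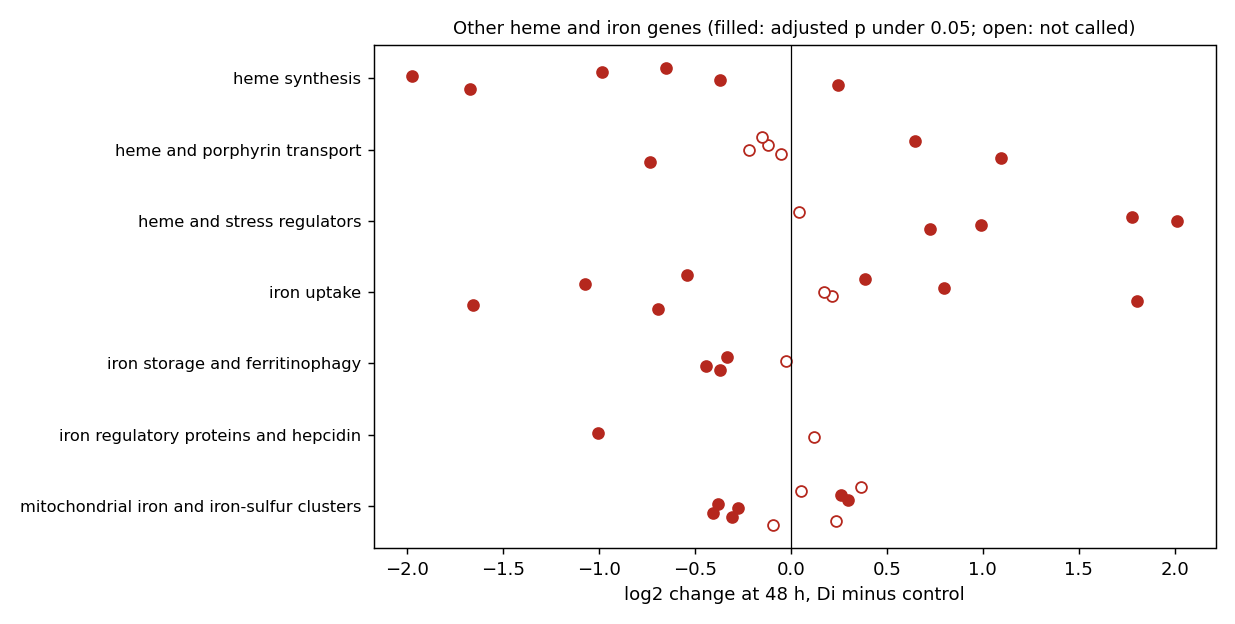
Log2 change from control to Di at 48 h for the 43 measured genes of the other heme and iron lists, 1 row per list, filled where the adjusted p was under 0.05. The regulators lie to the right, up to 2.01 for MAFF, heme synthesis lies mostly to the left, and iron uptake spreads to both sides.

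The changes of these genes also differed between the times. The largest called differences, 48 h minus 12 h, were 1.84 for LCN2, 1.64 for MAFF, 1.58 for MAFG and 1.37 for ABCB6 on the higher side, and -1.71 for HFE, -1.45 for ALAD, -1.11 for PPOX and -0.999 for UROD on the lower side. LCN2 lay under the floor at 12 h in both groups, and the differences for LCN2, HFE and PPOX are fitted values that run under it. With the mean of its kept probe sets the HFE difference was -0.98, less than the ALAD difference. In control cells from 12 h to 48 h SLC39A14 (1.59), SLC46A1 (1.05) and SLC25A38 (0.84) rose and LCN2 was at least 2.06-fold higher. With the mean of its kept probe sets the SLC39A14 value was 2.74. TFR2 (-1.04), ABCB6 (-0.87), ABCB10 (-0.82) and KEAP1 (-0.63) fell over the same time.

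The 5 genes outside these lists whose log2 values ran closest to HMOX1 over the 12 arrays were RND3 (Pearson r = 0.998), SRXN1 (0.996), PPARG (0.995), DKK1 (0.995) and SNAI2 (0.995). These r values are a description: the 3 arrays of Di at 48 h stand apart from the other 9 and set them. At 48 h the log2 difference from control was 2.52 for RND3, 4.29 for SRXN1 and 2.10 for PPARG. At 12 h it was 0.26, 0.52 and 0.15. DKK1 and SNAI2 had control means of 2.54 and 2.51 at 48 h, under the floor, and Di means of 7.03 and 6.99.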

How the data were processed

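The deposited values are log2 expression values made by the authors with GCRMA, per the submitters' processing notes (version not given in the sources used here), for total RNA on an Affymetrix array. Of 54675 probe sets, 62 were controls, 41097 had 1 gene symbol, 1801 several and 11777 none in the platform's gene table, and symbols were updated through RefSeq's. Kept probe sets exceeded 4 (log2) on 3 or more of the 12 arrays (21715 kept, 18957 with 1 gene). Each gene took 1 probe set, not of the _x_at type where possible, with the highest mean. limma 3.58.1 in R 4.3.3 fitted 1 mean per group to all 12 arrays (lmFit, eBayes, two-sided), with Benjamini-Hochberg adjustment over 10623 genes. The script was tested on simulated data. Errors are SEs of the fit beside changes and SDs beside means. A fold against a group under the floor is a bound against 4. On an array the number of arrays, not depth, limits the precision. The text names all members, the 4 called list genes with the largest change per contrast and direction, BACH1, NFE2L2, IREB2 and ACO1 whatever their values, and the 5 genes closest to HMOX1. Other list genes are named as examples, chosen after their values were seen. Members, lists and rules were chosen with earlier results of these data known. Alternatives were the filter, the floor, the scaling, the probe set, the moderation, the arrays fitted, a replicate block and each array left out. Figures used matplotlib 3.10.9 in Python 3.11.15.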

Additional observations from a re-analysis of the deposited data

Results flagged for a closer look

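For 6 of the 9 measured genes the Di change differed between 12 h and 48 h, by the limma contrast of both changes. It was larger at 48 h by 4.83 (log2) for HMOX1, 1.03 for BLVRB, 0.66 for FECH, 0.57 for ALAS1 and 0.36 for FTL, and lower by a difference of -0.54 for HMOX2.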

How the results depend on the processing

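The members called, 2 at 12 h, 7 at 48 h, 6 for the difference and 4 for control time, became 3, 7, 6 and 4 with a replicate block, and calls over all genes at 12 h became 1003 in place of 1455. With the block BLVRA was called at 12 h (adjusted p = 0.0365). The calls of CISD1 (0.0594) and ISCU (0.0736) at 12 h and of CPOX at 48 h (0.059) were lost with it. The block changed no other call that was followed through the alternatives. Those of ABCB10, SLC39A14, STEAP3, CYBRD1 and TFR2 at 48 h were not followed. Deviations of same-numbered Di and control arrays from their group means correlated at -0.23 to 0.15 at 12 h and -0.26 to 0.09 at 48 h. For different-numbered arrays these correlations were -0.21 to 0.27 at 12 h and -0.31 to 0.29 at 48 h. With 3 arrays per group, whether the numbers pair the arrays cannot be told from these values. Leaving out each array gave 2 to 4 members at 12 h and 2 to 6 for control time. Fitting only the arrays of the comparison gave 575 calls over all genes at 12 h. Centring arrays on the median of the tested genes, an alternative chosen after seeing the data, gave 4 members at 12 h and raised the share of higher calls at 12 h from 28.5% to 54.4%, and for control time from 41.3% to 51.5%. With this centring HMOX2 (0.46, adjusted p = 0.0206) and BLVRA (0.50, 0.0357) were called at 12 h. Turned directions concerned only values that were not called. The BLVRA difference between times was -0.0252 centred on array medians, -0.0056 after quantile normalization, -0.0369 centred on tested genes, and -0.13 to 0.12 with an array left out. With an array left out, control-time values were -0.24 to 0.0091 for BLVRA, -0.0160 to 0.0184 for FTL and -0.148 to 0.0229 for HMOX2 (0.00596 centred on tested genes), the TFRC difference was -0.13 to 0.0185, and NFE2L2 gave -0.19 to 0.0871 at 12 h and -0.0039 to 0.0841 at 48 h. NFE2L2 at 12 h was 0.0107 centred on tested genes and 0.23 with the mean of probe sets. The cause was not tested.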
